A study of Drosophila melanogaster and Drosophila ananassae and Drosophila pseudoobscura with 52 samples.

Results

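Highly edited sites of D.mel were chosen by their measured editing level, as the sites at 50% or more in both males and females of the D.mel stock. There were 78 such sites among the 721 with a level in both D.mel sexes, out of 2380 sites listed. Editing levels had been measured in whole bodies of 5-day-old adults by mmPCR-seq, in which many loci are amplified from cDNA by multiplex PCR on a microfluidic chip and sequenced. A further round, described below, did not use the chip. The tables give 1 level per site for each sex of 6 species, namely D.mel (stock 14021-0231.69), D.sim (14021-0251.011), D.yak (14021-0261.01), D.ana (14024-0371.13), D.pse (14011-0121.94) and D.vir (15010-1051.09), and 1 level per site for each of 2 libraries of males from 8 inbred D.mel lines of the DGRP (Drosophila Genetic Reference Panel), lines 26, 325, 352, 441, 721, 774, 786 and 804. No fly carried an allele or received a treatment named in the labels. Each species is thus known from 1 laboratory stock, each library came from a pool of flies, and only males of the lines were measured. The 36 libraries of the species included 12 that the labels assign to a further, targeted round for D.vir, D.pse and D.ana, but the species values are not split by library, so differences between species or sexes have no replicate check. The study describes its replicates as biological except for some that it marks as technical, but the labels do not say whether the 2 libraries of a line came from separate cultures, so the p-values for the lines measure only the spread between libraries, which may be technical. The tables hold no expression values, and the tissue could not be checked against markers.

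A-to-I editing is made by ADAR, an enzyme that binds double-stranded RNA and deaminates adenosine to inosine. Inosine pairs like guanosine, so that an edited A is read as G in cDNA, and the editing level is the share of reads with G at the site. In flies, ADAR is most active in the nervous system, and loss of the enzyme gives mainly neurological and behavioural defects. In whole bodies, a level averages over every tissue that transcribes the site, so a change in the share of RNA from a tissue and a change of editing within it cannot be told apart.

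Sites are named by chromosome arm and position, each a single base in the D.mel coordinates of dm3, the build given in the submitters' processing notes. Genes, exons and UTRs were not assigned, because the gene table at hand is of another build. Primer pairs designed to amplify D.mel loci fix which transcripts were read on the chip. Per the study's methods, the targeted round used other pairs, made for D.vir, D.pse and D.ana at loci missed there by the D.mel pairs. Values of those species may therefore rest on pairs other than the D.mel pairs shown here. Pairs are shown for 4 sites that recur below, chosen because they stand for a high level in every species (X 14893957), a level that was higher in females (3R 6071147), a level that varied between lines (X 19107872) and a possible genomic G (2L 8224296). Both strands are written 5′ to 3′, and the pair shown for 3R 6071147 is listed for a position 1 bp away.
X 14893957 forward: atgaaggctgacatatgtgttc
X 14893957 reverse: ccagaattgatcgccgaagac
3R 6071147 forward: cctggagaggcaactctacaa
3R 6071147 reverse: ttccagcaacttgagactgttc
X 19107872 forward: caccagctgaccaggaga
X 19107872 reverse: ggagctgatgatgtctggtct
2L 8224296 forward: ggaactgctgccctacaat
2L 8224296 reverse: tattgaccacattcaagtgctgt

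The D.mel levels chose these sites and are given as a description only. In males they ran from 50.7 to 100%, with a median of 78.1%, and in females from 50.7 to 99.95%, with a median of 74.1%. Over the 721 sites the medians were 8.35% in males and 3.4% in females, so the highly edited sites form the upper tail of a distribution in which most sites were edited at low levels. Among those 721 sites, 100 reached 50% in males and 79 in females, and all but 1 of the latter also did so in males. Just inside the limit lay 3R 191196 (54.6% in males and 50.7% in females), 3R 6071147 (50.7% and 69.75%) and X 11865886 (72.65% and 51.15%). Just outside lay 4 1155487 (61.6% and 49.9%), X 17824766 (54.1% and 49.1%) and 2R 7337823 (54.65% and 49.05%).

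**Figure D1:**
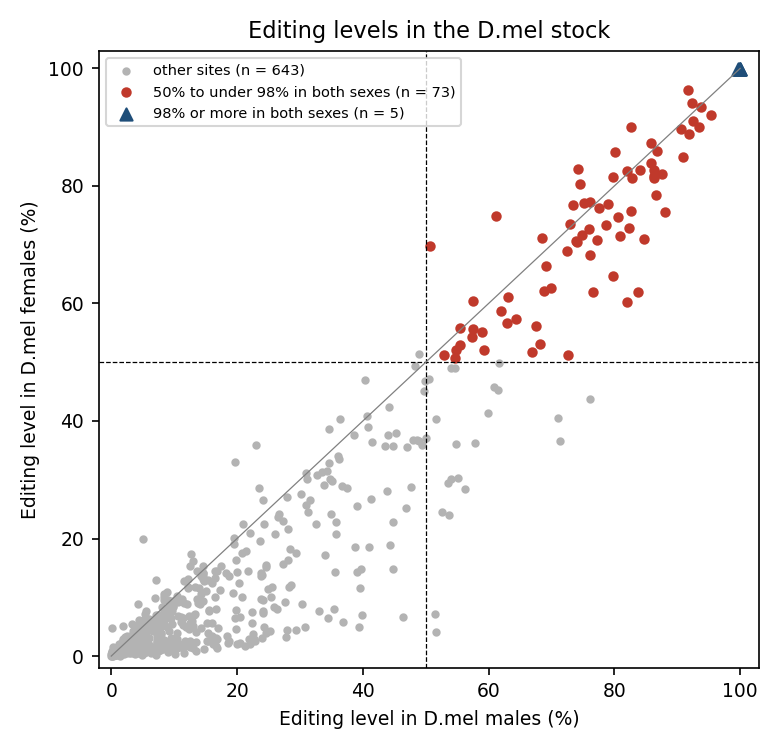
Editing level in D.mel males (x axis, %) against D.mel females (y axis, %) for the 721 sites with both levels. The dashed lines mark 50%, the diagonal marks equal levels, the red points are the 73 highly edited sites under 98% and the blue triangles are the 5 sites at 98% or more, which lie together in the upper right corner.

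Of the 78 sites, 5 were at 98% or more in both sexes. They were 2R 6168396 (100% in males and 99.95% in females), 3L 2259941 (100% and 99.9%), 2L 8224296 (99.9% and 99.9%), 3R 25682017 (99.8% and 99.9%) and 3R 26470865 (99.65% and 99.9%). A G in the genome of the stock would be read in the same way as a fully edited A, and from these tables the 2 cannot be told apart. In the other species, 3L 2259941, 2L 8224296 and 3R 25682017 were at 0.4% or less in every sex and species measured, D.sim and D.yak included. 2R 6168396 had a level only in D.ana females (0.25%) and in both sexes of D.vir (0.1% and 0.3%), and 3R 26470865 had none outside D.mel. No site of these 5 was edited at a detectable level in another species, and levels and counts of unedited sites in the other species are therefore also given without them.

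In the other 5 species, the sites that were highly edited in D.mel were mostly also highly edited where they were measured. Coverage fell with distance from D.mel, from 56 and 53 of the 78 sites with a level in D.sim males and females to 22 and 19 in D.vir. The study reports that its D.mel primers amplified fewer of the loci in distant species. Of the 372 levels measured over the 10 combinations of species and sex, 268 (72.0%) were at 50% or more, 32 lay from 10% to under 50%, 10 between 1.5% and 10%, and 62 (16.7%) at 1.5% or less. Without the 5 sites at 98% or more, 342 levels remained, of which 268 were at 50% or more and 32 at 1.5% or less. Most levels were thus at 50% or more, and the rest were spread from near 0 to just under 50%. A level near 0 says nothing of whether the genome of that species has an A at the position, which was not examined here.

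With all sites counted, D.sim and D.yak, the closest relatives of D.mel in the set, had the highest shares. In D.sim males 46 of 56 measured sites (82.1%) were at 50% or more, against 14.8% of all sites measured there, and in D.sim females 40 of 53 (75.5%), against 10.3%. In D.yak the counts were 43 of 50 in males (86.0%, against 17.7% of all sites) and 42 of 51 in females (82.4%, against 11.7%). Medians were 75.7% and 69.75% in D.sim males and females and 75.2% and 71.4% in D.yak, close to those in D.mel.

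With all sites counted, shares were lower in the 3 distant species, although still far above those of all sites. These shares include the sites at 98% or more, which weigh most where few sites were measured. Without those sites the share in D.vir females lay above that in D.sim females, so the lower shares do not hold for every combination. They were 22 of 34 in D.ana males (64.7%, against 15.0%) and 19 of 29 in D.ana females (65.5%, against 10.1%). D.pse had 17 of 30 in males (56.7%, against 12.4%) and 16 of 28 in females (57.1%, against 9.97%). In D.vir 10 of 22 sites reached 50% in males (45.5%, against 6.62%) and 13 of 19 in females (68.4%, against 7.47%). The medians were 68.6% and 67.45% in D.ana, 63.85% and 62.3% in D.pse and 38.8% and 68.75% in D.vir, males first. The 2 D.vir medians are over partly different sites, as only 14 sites had a level in both sexes. Without the sites at 98% or more, the medians were 75% and 76.35% in D.ana, 71.2% and 64.9% in D.pse and 54.15% and 80.8% in D.vir. Those of D.sim were then 78.85% and 72.2%, and those of D.yak 77.25% and 74.3%. Medians of D.ana and D.vir females were thus above those of D.sim and D.yak females, and a decline with distance did not hold for every combination of species and sex.

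**Figure D2:**
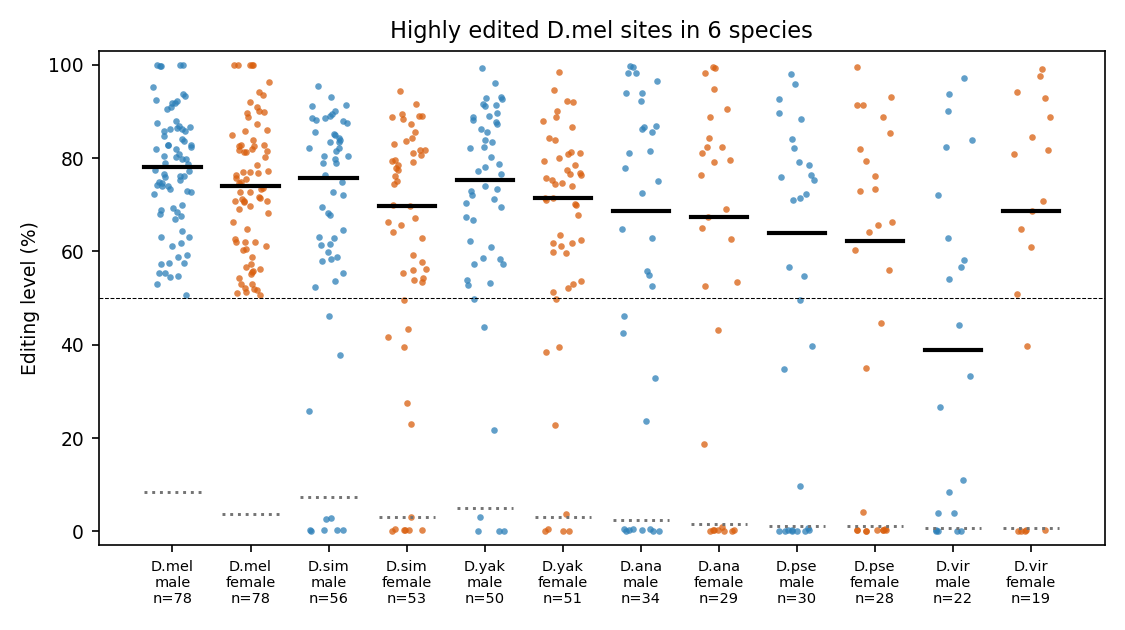
Editing level (%) of the highly edited D.mel sites in males (blue) and females (orange) of 6 species, 1 point per site, with n the number of sites that had a level. Black bars are medians of these sites, dotted grey bars are medians of all sites measured, and the dashed line marks 50%, the limit that chose the sites in D.mel; outside D.mel most points lie above 50% except in D.vir males, and the others lie near 0 or in between.

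A site was called unedited in a species where every measured sex was at 1.5% or less. By that measure 6 of 62 sites were unedited in D.sim (9.68%, against 25.9% of all sites) and 4 of 56 in D.yak (7.14%, against 30.8%). The numbers were 9 of 36 in D.ana (25%, against 43.4%), 9 of 31 in D.pse (29.0%, against 47.8%) and 6 of 27 in D.vir (22.2%, against 53.0%). Without the sites at 98% or more, the counts of unedited sites were 3 for D.sim, 1 for D.yak, 5 for D.ana, 7 for D.pse and 2 for D.vir. In all, 17 of the 69 sites with a level outside D.mel were unedited in at least 1 species, and 10 of these 17 were at 50% or more in another of the 5. At the other end, 31 of the 69 sites were at 50% or more in every measured sex and species, and 15 of those had been measured in at least 3 species.

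Among the 13 sites with a level in all 5 other species, the one with the highest minimum was X 14893957. Its level was 86.35% in D.mel males and 81.4% in females, 85.2% and 81.75% in D.sim, 86.3% and 71.0% in D.yak, 86.75% in D.ana males, 78.55% and 79.3% in D.pse and 72.1% and 70.75% in D.vir. Every value was above 70%, and those of D.vir were among the 3 lowest. Next came 3L 2925255, which lay between 65.6% in D.pse females and 99.05% in D.vir females, and 3R 20532273, which was at 53.8% in D.sim females and from 75.75 to 93.75% elsewhere outside D.mel. X 6002745 was at 46.25% in D.ana males and 81.05% in D.ana females, with 63.45% or more in every other species value. 2R 9697052 had its lowest level in D.sim females (39.6%) and its highest in D.pse males (98%).

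Several sites were highly edited in some species and near 0 in others. 2L 9809297 was at 74.9% and 71.6% in D.mel males and females, 84.3% and 77.55% in D.sim, 73.4% and 74.05% in D.yak, 0.0% and 0.05% in D.ana, 34.85% in D.pse males and 62.9% in D.vir males. It was thus near 0 only in D.ana, with edited levels in species both nearer to and farther from D.mel. The neighbouring sites 3L 2941364 and 3L 2941426 showed such a gap in D.pse instead. 3L 2941364 was at 82.8% in D.mel males, 83.85% in D.sim males, 87.8% in D.yak males, 64.8% in D.ana males, 0.1% and 0.25% in D.pse and 92.85% in D.vir females. At 3L 2941426 the level was 86.85% in D.mel males, 85.65% in D.sim males, 91.1% in D.yak males, 75% in D.ana males, 0.15% and 0.3% in D.pse and 94.15% in D.vir females. X 20644469 followed the tree instead, with 63.05% and 61.1% in D.mel, 55.4% in D.sim males and 62.15% and 59.75% in D.yak, against 0.2 to 0.65% in both sexes of each of the 3 distant species.

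Only 3 sites under 98% in D.mel were unedited in every other species where they had a level, and for 2 of them this rests on D.sim alone. X 19107872, at 90.55% and 89.7% in D.mel, was at 0.35% and 0.45% in D.sim and 0.45% and 0.35% in D.ana. 3R 1062097, at 72.95% and 73.55% in D.mel, was at 0.3% in both sexes of D.sim, where 3R 1062054, 43 bp away, was at 90.05% and 91.55%. 3L 4590685, at 54.75% and 52.1% in D.mel, was at 0.25% in D.sim females. The last 2 sites were chosen for mention after their values had been seen.

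**Figure D3:**
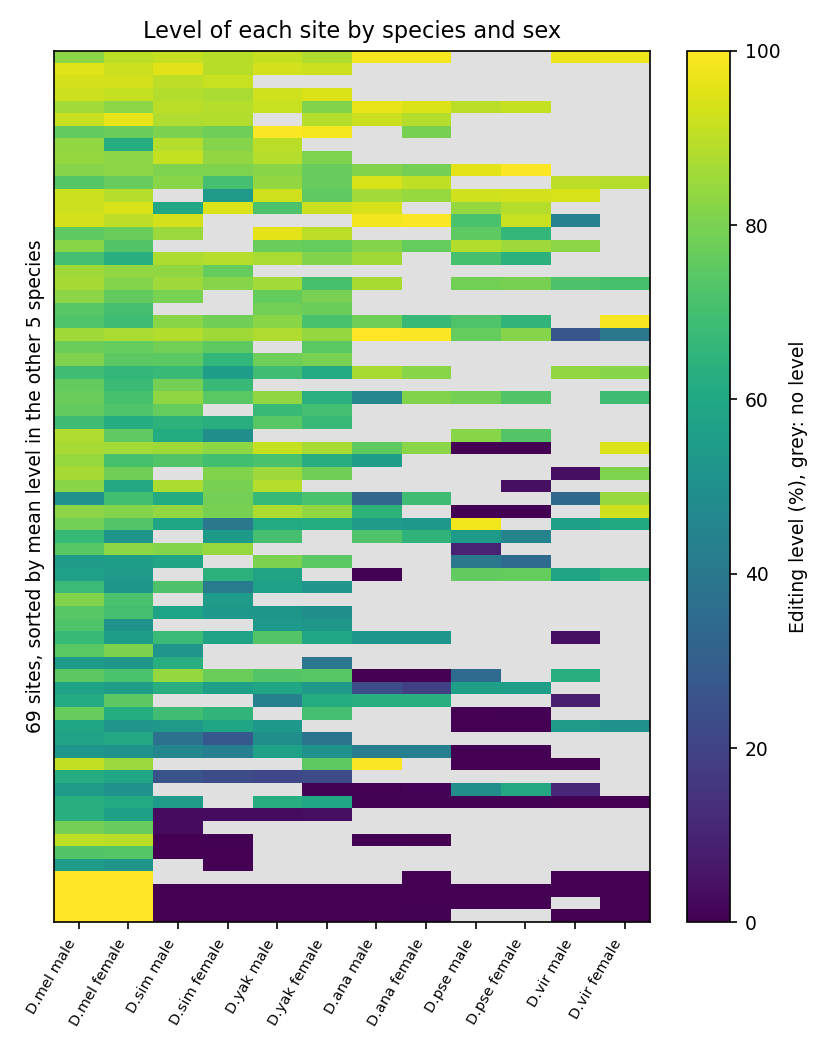
Editing level (colour, %) of the 69 highly edited D.mel sites with a level in at least 1 other species (rows, sorted by their mean level in the other 5 species) in each species and sex (columns), with grey where no level is listed. The bottom rows, yellow in D.mel and dark elsewhere, are sites at 98% or more in D.mel; dark cells higher up mark sites under 98% that were near 0 in 1 or more species.

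Highly edited sites lay near each other in places. 30 of the 78 formed 13 groups with gaps of at most 50 bp, and 52 (66.7%) had some other listed site within 50 bp, which is close to the 67.0% of all 721 sites. By arm, 16 lay on 2L, 11 on 2R, 16 on 3L, 18 on 3R, 2 on 4 and 15 on X. 2R held 14.1% of the highly edited sites and 25.2% of the 721 sites, and X 19.2% and 21.4%. Both largest groups held 4 sites. At 2L 16174138, 16174152, 16174153 and 16174194, levels in D.mel males were 82.7%, 69.2%, 73.45% and 80.15%, and in females 90.05%, 66.3%, 76.8% and 85.7%. The first of these was the most edited of the 3 measured in D.sim, D.yak, D.ana and D.vir and the second the least, in both sexes, with the highest levels in D.ana (98.3%, 86.95% and 93.85% in males). At 2R 7335106, 7335112, 7335122 and 7335128, levels in D.mel males were 80.55%, 95.3%, 82.7% and 76.0%, and 7335112 was also the highest of the 4 in D.sim and D.yak (95.55% and 93.1% in males).

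Adjacent bases could differ widely. At 3L 2941425 the level was 52.95% in D.mel males and 51.25% in females, against 86.85% and 86.0% at the next base. In D.sim males the pair was at 46.2% and 85.65%, in D.yak males at 57.25% and 91.1% and in D.ana males at 42.45% and 75%, so the second base was the more edited in each of these species, and both were at 0.3% or less in D.pse. 3R 15579485 and 15579486 were at 55.45% and 75.2% in D.mel males, while 2L 14083516 and 14083517 were at 86.25% and 87.6%. These adjacent pairs were picked after their values had been seen, and bases this close share reads and primers.

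The comparison of the sexes asked whether levels at these sites differed between males and females of a stock. Females of D.mel and its 2 close relatives were somewhat lower, with a median difference, female minus male, of -3.02 percentage points in D.mel (78 sites), -3.05 in D.sim (47) and -3.80 in D.yak (45). The median difference was small in the distant species, at -0.15 for D.ana (27 sites), 0.15 for D.pse (27) and 0.17 for D.vir (14). Unedited sites, at which the sexes can hardly differ, made up a larger share in these species. Their part in these medians was not tested. The medians also cover fewer and partly different sites, so they do not show that a shift was absent in the distant species. Over all sites with both sexes, the medians of D.mel, D.sim and D.yak were -2.2, -1.7 and -0.8, and those of the distant species lay between -0.15 and 0.05. In D.mel the limit of 50% in both sexes bears on this difference. Each sex has 1 value per site, and the shifts have no replicate check.

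Single sites went both ways. A level lower by at least 5 percentage points in females was found at 25 of 78 sites in D.mel, against a background of 33.1% of all sites. The counts were 17 of 47 for D.sim (background 29.9%) and 19 of 45 for D.yak (24.0%), and among the distant species 4 of 27 for D.ana (13.8%), 6 of 27 for D.pse (12%) and 0 of 14 for D.vir (6.16%). A site under 5% in males cannot be lower by 5 points in females, and many sites of the background were at such low levels. The backgrounds are therefore not a like comparison for highly edited sites. A level higher by that much in females was found at 6 sites for D.mel (background 1.66%), 3 for D.sim (1.25%), 2 for D.yak (3.42%), 3 for D.ana (2.81%), 3 for D.pse (9.06%) and 4 for D.vir (5.21%). Outside D.mel, 26 sites had both sexes in at least 3 species, and the female level was lower in every such species at 5 of them and higher in every such species at 2.

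One of these 2 was 3R 6071147. It was at 50.7% in males and 69.75% in females of D.mel, 61.6% and 79.25% in D.sim, 66.8% and 71.4% in D.yak, 32.9% and 69.05% in D.ana and 33.4% and 84.5% in D.vir. The female level was the higher in each of these 5 species, by 4.6 points in D.yak up to 51.1 points in D.vir, and D.pse had no level. In DGRP males, the line means ran from 47.45 to 61.9% with a median of 51.9%, below the level of D.mel females in every line. The other was 3R 21791365, at 59.95% and 94.3% in D.sim, 72.05% and 92.1% in D.yak and 84.05% and 88.7% in D.pse, but at 92.3% and 94.15% in D.mel. The third site in that ranking, 3R 16857660, had a median difference of only 0.2 points over D.sim, D.pse and D.vir. That median is the value of D.pse, where the site was unedited (0.15% and 0.35%). The difference was 5.45 points in D.sim, -3.2 in D.vir and -7.3 in D.mel, so the site was not higher in females throughout.

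Sites with the lowest median difference went the other way by smaller amounts. 3L 2941132 was at 67.6% in males and 56.15% in females of D.mel, 68.3% and 57.65% in D.sim, 73.05% and 59.8% in D.yak and 52.65% in both sexes of D.ana. 3L 2925255 was lower in females by 3.4 points in D.mel, by 3.6 in D.sim and by 10.75 in D.yak, and the distant species D.ana and D.pse had differences of 10.4 and 6.8 points in the same direction. X 6002745 was lower in females of D.mel (77.3% and 70.85%), D.sim, D.yak and D.pse, yet higher in D.ana (46.25% and 81.05%). The widest gap of all was at 2L 16179463 in D.vir, 3.95% in males and 80.8% in females, a site named after its values had been seen.

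**Figure D4:**
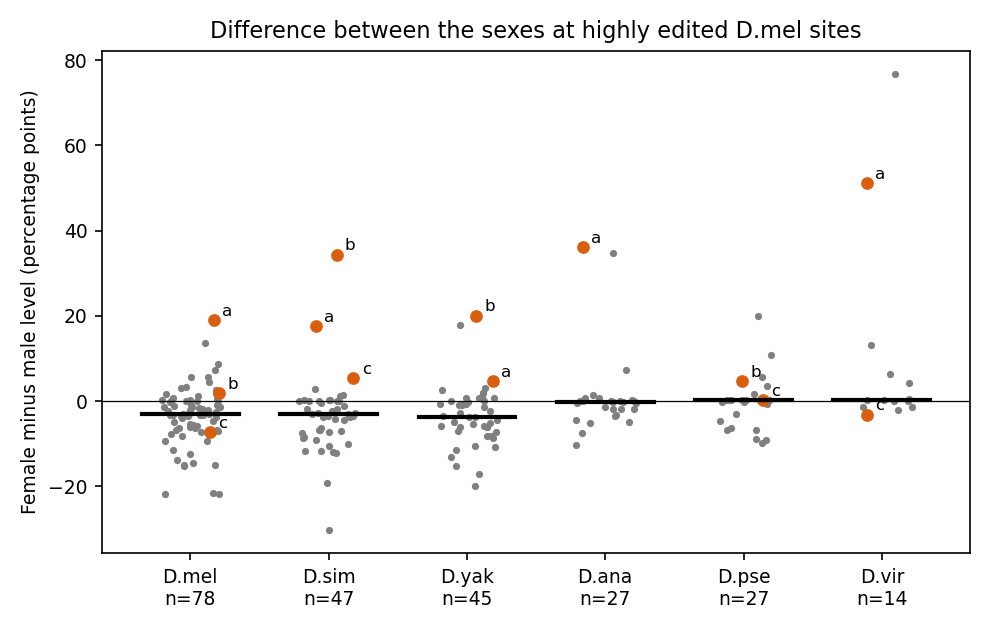
Female minus male editing level (percentage points) at highly edited D.mel sites with both sexes, by species, 1 point per site with n below; bars are medians. Orange points mark sites a (3R 6071147), b (3R 21791365) and c (3R 16857660), the 3 with the highest median difference over the other species; site a lies above 0 in each of the 5 species where it was measured.

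The comparison of DGRP lines asked whether levels differed between strains of D.mel. Of the 78 sites, 59 had a level in enough libraries to be fitted, 15 had none in any library and 4 had a level in only some. Most kept a high level, with 45 of the 59 at 50% or more in every line mean. A difference between lines passed the threshold at 17 sites (28.8%), against a background of 19.2% of all 478 sites fitted (limma's moderated F test over the 8 lines, Benjamini-Hochberg adjusted p under 0.05). The range of the line means was 2.85 to 84.85 percentage points over the 59 sites, with a median of 10.4, against 7.15 over all sites fitted. All sites fitted include many at low levels, which leave little room for a range in points, so these 2 medians do not compare variability. Among the 17 the median range was 41.1 points, and among the 42 others it was 8.68. All 11 sites with a range of 20 points or more passed, as did 6 of 21 between 10 and 20 points and 0 of 27 under 10 points. Without the first library of line 774 the test called 27 of the sites and 192 of all sites, and no other single library moved the count by over 1.5 times. In line 774, 7 of these sites and 89 of all sites measured in both of its libraries differed by over 10 percentage points between the 2 libraries, and the part of this library in the count was not tested beyond leaving it out.

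In 2 of the sites with the widest range, a single line stood apart. 2R 19894078 was at 5.5% and 12.3% in the libraries of line 352 (8.9% ± 4.81, SD, n = 2) and between 81.3% and 94.2% in all libraries of the other lines, so that the groups did not overlap (adjusted p = 2.12e-06, limma). The D.mel stock was at 90.9% in males and 84.9% in females, and outside D.mel the site was at 75.25% in D.yak females and 99.6% in D.ana males but near 0 in D.pse (0.3% in both sexes) and in D.vir males (0.0%). Without line 352 the range fell from 84.85 to 11.35 points and the adjusted p was 0.0302. 2R 7337822 was at 15.5% and 18.8% in line 774 (17.15% ± 2.33, SD, n = 2) and between 46.1% and 58.5% in all other libraries (adjusted p = 1.03e-05, limma). That call rests on line 774, since without it the range was 9.85 points and the adjusted p 0.0807.

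At X 19107872 the lines fell into 3 levels. Lines 26, 352, 786 and 804 were between 89.2% and 93.4% in every library, lines 441 and 774 between 22.6% and 25.4%, and lines 325 and 721 between 8.2% and 11.1%, with 90.55% in males of the stock (range of line means 83.65 points, adjusted p = 4.18e-10, limma). No 2 libraries of a line differed by more than 3.0 points there. The possible genomic G at 2R 6168396 was at 99.5% or more in both libraries of lines 26, 325 and 721, at 68.4% and 72.0% in line 352, and between 12.6% and 23.9% in lines 441, 774, 786 and 804 (range 82.55 points, adjusted p = 4.53e-10, limma). Reads without G were thus present at this site in 5 lines. Of the other sites at 98% or more, 3L 2259941, 2L 8224296 and 3R 25682017 had no level in any DGRP library, and 3R 26470865 had one only in line 721 (100% and 98.8%).

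2R 9697052, which was edited in all 6 species, had graded levels among the lines. Its line means were 79.7% ± 4.67 in line 26, 74.35% ± 0.778 in line 325, 51.85% ± 5.02 in line 352, 71.8% ± 1.98 in line 441, 53.85% ± 0.0707 in line 721, 67.4% ± 2.12 in line 774, 72.3% ± 0.566 in line 786 and 32.65% ± 2.19 in line 804 (SD, n = 2 each; adjusted p = 2.13e-05, limma). Line 804 was lowest, followed by lines 352 and 721, whose libraries overlapped. The 2 libraries of line 721 carry the same male number and may be of the same flies, so SDs of that line may be technical. Among sites named after their values had been seen, 2R 9704884 was also lowest in line 804 (30% ± 1.98), with 45.45% ± 1.34 in line 721, 58.7% ± 2.40 in line 352 and 75.9 to 86.35% in the other line means (adjusted p = 1.36e-05, limma). At 2L 3762337 the libraries of lines 441, 721 and 774 were between 1.9% and 4.4%, those of lines 325, 352 and 804 between 43.3% and 55.9%, and those of lines 26 and 786 between 66.5% and 77.3% (adjusted p = 8.96e-08, limma).

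Neighbouring sites did not always move together. 3L 4590685 was at 1.7% and 9.8% in line 26 and between 40.1% and 77.4% elsewhere, with the widest gap between libraries in line 804 (75.5% and 50%; adjusted p = 0.00174, limma), while 3L 4590709, 24 bp away, was at 81.3% and 71.3% in line 26. The lowest line means of 3L 4590709 were those of lines 325, 721 and 352, from 50.8 to 52.05%, and its highest was 86.2% ± 0.283 in line 804 (adjusted p = 2.12e-05, limma). In the group on 2L, by contrast, 16174138, 16174152 and 16174153 were each highest in line 786 (85.25%, 67.6% and 76.45%) and lowest in line 774 (68.25%, 50.85% and 59.1%), with adjusted p of 0.0251, 0.0551 and 0.0407 (limma), of which the second missed the threshold. These sites, apart from the group on 2L, were also chosen after their values had been seen.

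The 5 sites under 98% with the narrowest ranges lay at various levels. 3L 9148318 had line means from 87.25 to 90.1%, with all 16 libraries between 84.9% and 91.5% (adjusted p = 0.822, limma). 2R 7335112 ran from 91.7 to 95% and 2R 7335122, 10 bp away, from 74.8 to 78.95%, with adjusted p of 0.0708 and 0.553 (limma). Line means of 3L 9826469 were 83.75 to 87.25% (adjusted p = 0.268, limma) and those of 2R 5122024 were 52.3 to 56.45% (adjusted p = 0.974, limma). 2R 5122024 was thus the least edited of these 5, with no line mean below 50%. A p that misses the threshold does not show that the lines were equal at these sites.

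**Figure D5:**
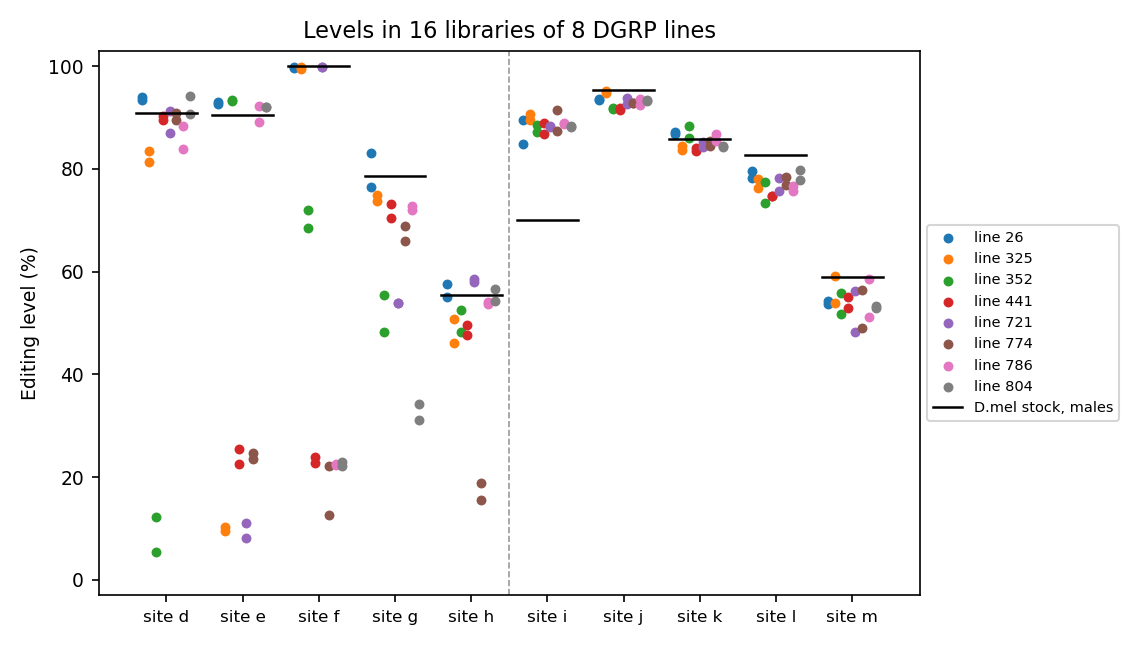
Editing level (%) in the 16 libraries of DGRP males at 10 highly edited D.mel sites, coloured by line, 2 points per line and site; black bars give the single level of males of the D.mel stock. Sites d to h (2R 19894078, X 19107872, 2R 6168396, 2R 9697052 and 2R 7337822) had the widest ranges of line means among called sites with libraries within 10 percentage points of each other, and sites i to m (3L 9148318, 2R 7335112, 3L 9826469, 2R 7335122 and 2R 5122024) the narrowest.

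Males of the D.mel stock, whose levels helped to choose the sites, lay within the range of the 8 line means at 30 of the 59 sites, above every line at 18 and below every line at 11. The median of the stock level minus the median line mean was 2.48 percentage points. The stock stood far below the lines at 3L 9148318, with 69.95% against line means of 87.25 to 90.1%, and there D.sim and D.yak males (87.5% and 87.3%) lay in the range of the lines. At 3L 9826400, a site named after its values had been seen, the stock was at 61.9% against 33.85 to 45.55% in the lines, 25.9% in D.sim males and 21.65% in D.yak males. The next base, 3L 9826401, was at 73.95% in the stock and 57.05 to 65.65% in the lines.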

How the data were processed

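Editing levels were deposited by the authors as a fraction between 0 and 1 per site. Per the study's methods, reads were aligned with TopHat and sites covered by at least 50 reads were kept. No read counts are given, so the depth of single values is unknown and no intervals were computed. How replicates and rounds were combined into the species values is not stated, and the study set sites without a genomic A to 0% in at least one comparison, which may also hold here. The methods name a limit of 10% on the difference between replicates for a divergence analysis, and the table of the lines holds wider differences. In the table of the lines, 16 positions written with NA for the digits 200 were restored (0 of them highly edited sites). Both columns of line 721 carry the same male number, so they may not be separate samples, although the test counts them as 2 libraries.

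Levels were converted to percent with Python 3.11.15 (pandas 2.3.3). Lines were compared with limma 3.58.1 (R 4.3.3), by the moderated F test on log2((level + 0.01)/(1 − level + 0.01)) over the 478 sites that had a level in each of the 16 libraries and a mean level of 1% or more, with Benjamini-Hochberg adjustment, and the fit was tested on simulated data. Species and sexes have 1 value each and were not tested. Alternatives comprised other offsets, filters and limits, a replicate block and leaving out libraries or lines.

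The sites and lists were chosen with earlier results of these data known. Named by rule were sites at 98% or more, the 5 highest and 5 lowest minima over all 5 other species, the 5 widest ranges of line means among called sites with libraries within 10 percentage points in every line and the 5 narrowest among fitted sites under 98%, up to 5 sites unedited in at least 2 species, the 3 highest and 3 lowest sex differences, the 3 on either side of the limit, and the largest group. Gene groups foreseen in the design could not be applied.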

Additional observations from a re-analysis of the deposited data

Results flagged for a closer look

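The means of the 8 lines were searched at the 59 fitted sites for a line far from the other 7, by the gap to the nearest line as a share of the whole range (Dixon's 95% critical value), which chance passes at about 1 in 20 sites. Such a line was found at 9 sites, in line 26 at 1, line 352 at 2, line 721 at 3 and line 774 at 3. No such count was made over all sites fitted, so whether highly edited sites differ from other sites in this was not tested. The difference between lines passed limma's test at 4 of them. These were 2R 7337822 (line 774 at 17.15%, nearest other line at 48.4%), 2R 19894078 (line 352 at 8.9%, nearest at 82.4%), 3L 4590685 (line 26 at 5.75%, nearest at 42.2%) and 3R 13708487 (line 721 at 29.0% ± 0.141, SD, n = 2, nearest at 67.35%). At 3R 13708487 the stock was at 74.05% in males and 70.5% in females, and D.yak at 78.8% and 77.35%.

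At the other 5 sites the difference between lines missed the threshold. Line 721 was highest at the neighbouring sites 3L 4369162 (79.0%, nearest 73.3%) and 3L 4369184 (81.85%, nearest 77.1%), line 352 lowest at X 6002745 (64.65%, nearest 73.75%), and line 774 highest at X 11833731 (69.95%, nearest 58.5%) and lowest at X 14893957 (75.5%, nearest 81.45%). The libraries of the line that stood apart were 74.5% and 54.8% at X 6002745 and 62.4% and 77.5% at X 11833731.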

How the results depend on the processing

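Of 414 alternatives computed over the reported values, 385 stayed on the same side of the threshold, within 1.5 times of a count or within 3.59 percentage points of a level (the pooled SD within lines, a measure for single levels and not the error of a median). These values are counts, medians and ranges, which have no direction to reverse. A range of line means also cannot change with the offset. Leaving out single libraries gave 13 to 27 sites that differed between lines, against 17, and the other alternatives, leaving out a line among them, gave 13 to 20. The replicate numbers of 7 lines were checked for pairing (line 721 has no numbers). Deviations from the line means of libraries with the same number correlated between lines with r from -0.13 to 0.31 over 21 pairs, with a median of 0.12 and 12 pairs over 0.1. As not every pair was over 0.1, and no label names a shared batch, the numbers were not taken as pairs. In all 7 lines, though, the strongest correlation was with a library of the same number, a hint from the data of something shared. With the replicate block, which leaves out line 721, 20 sites were called, and 89 of all sites, against 15 and 73 for the same 7 lines without the block. The site at 2R 7335112 (range 3.3 points) passed with the block (adjusted p = 0.0499, limma) and without the first library of line 774 (adjusted p = 0.0488, limma). 2R 7337822 missed without line 774 (range 9.85 points, adjusted p = 0.0807, limma).

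Median levels depended on the limit that chose the sites. With a limit of 40% the medians were 70.05% and 63.8% in D.sim males and females, 67.45% in D.yak females, 55.75% and 62.6% in D.ana males and females, 71.2% in D.pse males and 64.7% in D.vir females. With 60% they were 80.5% and 77.55% in D.sim, 82.3% and 76.35% in D.yak, 81.1% and 79.25% in D.ana, 72.4% and 66.2% in D.pse, and 44.25% in D.vir males. Without sites at 98% or more they were 75% and 76.35% in D.ana, 71.2% in D.pse males, and 54.15% and 80.8% in D.vir males and females. Leaving out those sites, an alternative chosen after seeing the data, also lowered the count of unedited sites from 6 to 3 for D.sim, from 4 to 1 for D.yak, from 9 to 5 for D.ana and from 6 to 2 for D.vir. Read depth is unknown here, and with 1 value per species and sex, small differences between species or sexes cannot be judged.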
